A study of Mus musculus with 3 samples.

Results

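In the ovary of the 14-day-old mouse, 125 of 583 kept cells (21.4%, 95% Clopper-Pearson interval 18.2 to 25%) formed the quiescent stroma described here. They were chosen from the UMI counts themselves. A kept cell had at least 200 detected genes. A member held at least 10 UMIs of Dcn, Ogn, Cxcl14 and Dpep1 together per 10000 UMIs of the cell (CP10K). It also held less than 5 CP10K of 6 mitotic genes (Mki67, Top2a, Birc5, Ube2c, Ccnb2, Prc1), less than 4 of Tmem100, Hhip, Osr2 and Enpep together (the Hhip gate), less than 10 of the steroidogenic enzymes Cyp17a1, Cyp11a1 and Hsd3b1, less than 10 of the granulosa cell genes Inha, Amh, Hsd17b1 and Nr5a2, and less than 2 of the endothelial genes Cldn5 and Cdh5. Levels of these 23 genes in the members are therefore a consequence of the choice and are given as description.

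Ovaries came from wild-type female C57BL/6 mice of 3 ages, postnatal days 14 and 7 and embryonic day 16.5, in a series titled for the passage of the granulosa lineage from one oestrogen receptor to the other. No treatment or altered allele distinguishes the ages. After collagenase digestion and a 40 μm filter the cells were loaded, with no sort mentioned in the labels, on the 10x Chromium droplet system, whose 3′ kit counts each captured mRNA once through a unique molecular identifier (UMI). Each age is 1 library, with 1554 deposited barcodes over the 3 libraries, the number of animals behind a library is not stated in the labels, and no barcode occurred in more than 1 library.

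The ovarian stroma is the connective tissue between follicles. Its fibroblast-like cells deposit interstitial collagen, bind it with small leucine-rich proteoglycans, crosslink it with lysyl oxidases and supply part of the theca that surrounds growing follicles. Contractile cells with smooth muscle actin lie in the theca externa and around vessels, and stromal cells secrete chemokines, complement regulators and antagonists of WNT and BMP signals.

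With 1 library per age there is no replicate, so no difference below has a test or a p-value. Levels are UMIs per 1000000 of all UMIs summed over a set of cells (CPM), and intervals are exact 95% Poisson intervals that cover counting error only. Differences are log2 ratios of CPM + 10, and a gene is called higher or lower at 2-fold on that scale if both sets together held at least 10 of its UMIs. The members held 1313092 UMIs in all, with 5568 to 55134 and a median of 8235 per cell. The other 458 cells of the library had a median of 12873.5, so shares of cells with a UMI were also taken after thinning each cell to 5000 UMIs, which left out 0 cells. No doublet caller was run, and leaving out members among the 5% deepest cells left 121. Dissociated tissue gives proportions of cells loaded, and in sums fewer expressing cells and less RNA per cell cannot be told apart.

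The entry genes varied widely among members. Decorin (Dcn), a proteoglycan that binds collagen fibrils, ran from 0 through a median of 10.0 to 148 CP10K. Osteoglycin (Ogn), of the same proteoglycan family, ran from 0 through 6.42 to 30.6 CP10K. The chemokine Cxcl14 ran from 0 through 3.40 to 81.1 CP10K, and the membrane dipeptidase Dpep1 from 0 through 1.31 to 9.77 CP10K. Of the CP10K of the entry genes summed over all members, Dcn made up 51.7%, Ogn 23.3%, Cxcl14 19.4% and Dpep1 5.61%. Dcn alone passed the entry threshold in 63 members, Ogn alone in 33, Cxcl14 alone in 21 and Dpep1 alone in 0. At least 1 gene alone was enough in 89 members, and 36 passed only through several genes together. All 4 entry genes were detected in 53 members, 3 in 56, 2 in 15 and 1 in 1.

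The entry sum had a lowest value of 10.1, a median of 26.2 and a highest of 162 CP10K. The members just inside the threshold had 10.1, 10.2 and 10.4 CP10K, and the cells just outside had 9.84, 9.43 and 8.94 CP10K. The genes of the Hhip gate had a median of 1.41 CP10K in members, 34 of which had 0. Few UMIs per cell therefore decide at this gate. Values also lay close on both sides of it. Members just inside held 3.95, 3.86 and 3.84 CP10K of its genes, and cells just outside held 4.02, 4.08 and 4.11 CP10K. Another 125 cells passed every criterion except this gate. By contrast 7 cells failed only the mitotic gate, 4 only the endothelial gate, 1 only the granulosa gate and 0 only the steroidogenic gate: none of the 76 cells that failed the steroidogenic gate reached the entry sum.

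**Figure D1:**
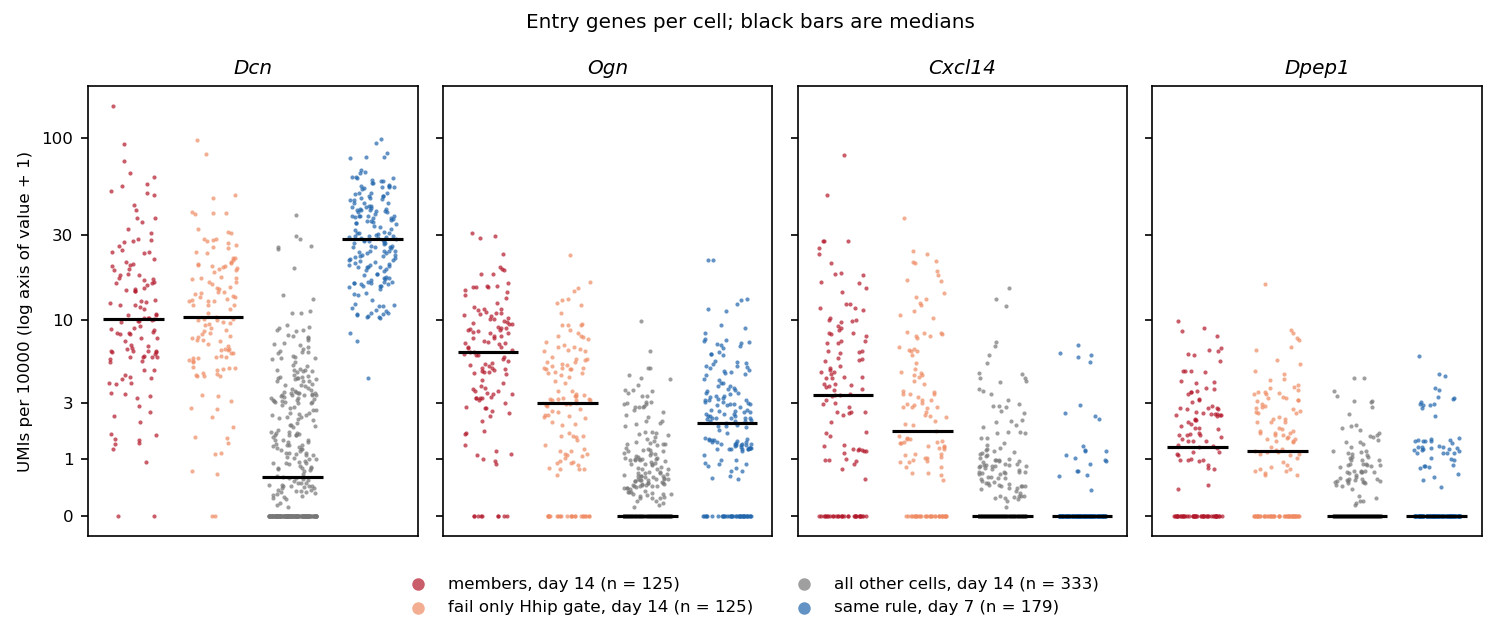
Level of each of the 4 entry genes in single cells, in UMIs per 10000 on a log axis of value + 1, for the 125 members, the 125 cells that fail only the Hhip gate, the other 333 cells of the day 14 library and the 179 cells that the same rule takes at postnatal day 7; black bars are medians. Dcn is lower and Cxcl14 higher in the day 14 members than in the day 7 cells, where the median Cxcl14 is 0.

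The label was checked against markers that the rule did not use. Of 15 stromal markers 9, among them Spon1, Col1a1, Col3a1, Lum, Tcf21, Mfap4, Mfap5 and Col6a3, were higher in members than in the other cells of the library and 0 were lower, where 1.29% of 15122 genes were higher and 2.80% lower. Endothelial markers were low: 9 of 11 were lower, and Plvap was at 0 UMIs. Of the granulosa markers 6 of 12 were lower, with Fshr and Cyp19a1 at 0. Theca markers were lower in 6 of 10, immune markers in 6 of 10, surface epithelium markers in 6 of 10 and germ cell markers in 4 of 8 that had enough UMIs. The members were chosen from the same counts, so these numbers describe the choice and do not test it. Smooth muscle and pericyte markers went the other way, with 6 of 13 higher and 1 lower, and are described with the sub-clusters below.

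The mitotic gate takes cells high in mitotic genes out of the members and leaves them in the comparison, so lower levels of other cell cycle genes are a description of the rule. Of 20 other genes of G2 and M phase 17 were lower than in the remaining cells, and their summed level was 117 against 865 CPM. Nusap1, a spindle protein, was at 0 UMIs in members against 42.1 CPM. Of 18 S phase genes 3 were lower: Tyms, Rrm1 and Rrm2, which make deoxynucleotides. Summed per cell, the 18 genes ran from 0 through a median of 3.22 to 39.6 CP10K in members. The other cells had a median of 4.44 and a highest value of 56.2 CP10K, so the rule did not take out every cell with S phase transcripts. D cyclins were not uniformly low. Ccnd2 stood at 382 CPM against 305 CPM and Ccnd3 at 134 against 83.3, both within 2-fold, while Ccnd1 was lower at 5.33 against 29.7 CPM. No kinase inhibitor of the list was called in either direction. Against cells that also pass the mitotic gate, none of the G2 and M phase genes with enough UMIs was called: 0 of 8 against those that failed only the Hhip gate, where 0.239% of all genes were lower, and 0 of 10 against the day 7 cells of the rule, where 1.00% were.

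A clustering of the whole library without the 23 rule genes was added after the data were seen and run at a single resolution. It gave 13 clusters and did not gather the members into a single one. It placed 41, 34, 31 and 13 members in 4 clusters, together with 26, 27, 19 and 20 of the cells that fail only the Hhip gate. A further 4 members lay in a cluster led by Adcy7, Thbd and Plac8, 1 lay in a cluster led by the surface epithelium gene Upk3b, and 1 in a cluster led by the macrophage gene Lyz2. The set is a range cut from scores. Whether it is a separate cell type was not tested, and a clustering that leaves out the rule genes cannot decide it.

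Against the rest of the library, 195 genes were higher and 424 lower in members, all with intervals that did not overlap. The median log2 ratio over the genes tested was -0.07. The split depended on the reference: against the median of the gate classes, which weights each class of other cells equally, 324 were higher and 171 lower. The genes that led were matrix proteins and secreted factors. Asporin (Aspn), a small leucine-rich proteoglycan related to decorin, had the highest log2 ratio of the genes named, 3.04, with 210 CPM (186 to 237) in members against 16.8 CPM (14.0 to 19.9). Per cell it ranged from 0, the median, to 27.7 CP10K, and 55 members held a UMI of it. Lumican (Lum), which shapes collagen fibrils, stood at 420 against 78.9 CPM, a ratio of 5.33 (4.74 to 5.98). Dermatopontin (Dpt) was rare but concentrated here, at 38.1 against 1.81 CPM, and 15 members held its 50 UMIs, 26 of them in 3 cells.

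Of 10 fibrillar and associated collagen genes with enough UMIs, 4 were higher and none lower, and their median log2 ratio was 0.95. Col1a1, a chain of type I collagen, had 1082 against 317 CPM, and Col3a1, the type III chain, 1327 against 470 CPM. Col1a2 was abundant in both sets, at 2009 and 1011 CPM, and stayed just inside 2-fold. Of 11 small leucine-rich and other proteoglycans 6 were higher and 1 lower. Biglycan (Bgn) had 982 against 405 CPM, fibromodulin (Fmod) 50.3 against 9.43 CPM, and the lower gene was Sdc4, a cell-surface syndecan, with 45.7 against 120 CPM. Basement membrane genes did not share this pattern: of 15, 0 were higher and 2 lower, Lama1 and Col18a1.

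Aspn, osteomodulin (Omd) and Ogn are neighbours on chromosome 13 of GRCm38, all on the plus strand. In the GENCODE M21 annotation Aspn spans chr13:49544443-49567565, Omd chr13:49582462-49592822 and Ogn chr13:49608046-49624501. All were higher in members than in the other cells, although Ogn is a rule gene, with Omd at 36.6 against 10.1 CPM. At postnatal day 7 the cells taken by the same rule held 11.3 CPM of Omd. Since Ogn was used to choose the cells, the shared direction is partly set by the rule, and common control of these genes was not tested. The 250 bases before each start are shown, from RefSeq on GRCm38.p6, 5′ to 3′, with the letters TATAAA on either strand in capitals. TATAAA occurred in 12.4% of 32851 such windows and at least 2 times in 2.1%. Matches overlap in Ogn. A match is a description of the letters and not a site of binding. The windows are chr13:49544193-49544442, chr13:49582212-49582461 and chr13:49607765-49608014.
Aspn: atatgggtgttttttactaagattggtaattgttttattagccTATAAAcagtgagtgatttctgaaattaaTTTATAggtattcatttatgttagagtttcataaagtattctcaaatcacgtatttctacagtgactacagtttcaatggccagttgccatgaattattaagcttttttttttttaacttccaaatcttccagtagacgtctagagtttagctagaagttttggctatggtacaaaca
Omd: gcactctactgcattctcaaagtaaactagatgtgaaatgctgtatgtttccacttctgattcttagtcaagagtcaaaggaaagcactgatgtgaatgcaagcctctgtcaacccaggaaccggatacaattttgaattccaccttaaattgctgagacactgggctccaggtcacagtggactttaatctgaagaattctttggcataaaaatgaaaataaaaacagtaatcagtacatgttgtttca
Ogn: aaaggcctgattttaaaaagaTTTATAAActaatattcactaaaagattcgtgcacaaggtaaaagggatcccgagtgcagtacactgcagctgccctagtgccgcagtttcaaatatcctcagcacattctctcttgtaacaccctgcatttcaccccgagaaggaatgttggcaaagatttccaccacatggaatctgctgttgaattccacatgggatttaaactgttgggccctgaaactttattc
Aspn has matches that begin 207 and 178 bases before its start and Omd has none in this window. Ogn has them 229 and 227 bases before its RefSeq start, which lies 31 bases upstream of the GENCODE start given above; for Aspn and Omd the starts are the same.

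Elastic fibre and matricellular genes were higher in 9 of 27 and lower in 0. Microfibril-associated Mfap4 had 1330 against 330 CPM, and Mfap5 252 against 47.2 CPM. Spon1, which encodes the matrix protein F-spondin and was a marker of this set outside the rule, had 117 against 30.0 CPM, a ratio of 3.89 (3.15 to 4.79). Matrix Gla protein (Mgp), an inhibitor of calcification, was among the most abundant genes named, at 1767 against 476 CPM, and ran from 0 through a median of 15.9 to 75 CP10K. Genes that cut or crosslink matrix were higher in 6 of 22 and lower in 0. Lysyl oxidase (Lox) had 57.9 against 8.79 CPM, its relative Loxl1 180.5 against 48.1 CPM, and the gelatinase Mmp2 482 against 182 CPM.

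Among secreted regulators, chemokine, complement and adhesion genes were higher in 6 of 19 and lower in 1, Thy1; the adhesion genes Cd34, Ncam1 and Itgbl1 were among the 6. The C1 inhibitor Serping1 had 323 against 95.5 CPM. The chemokine Cxcl12 had 206 against 36.3 CPM. Of 20 WNT genes 3 were higher and 1 lower: the antagonist Sfrp1 had 355 against 79.7 CPM, the ligand Wnt5a 33.5 against 9.95 CPM, the receptor Fzd1 28.2 against 9.04 CPM, and the ligand Wnt6 5.33 against 69.1 CPM.

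Of 24 genes of the TGF-beta and BMP pathway 2 were higher and 2 lower. The BMP target gene Id2 had 628 against 263 CPM, and Inhba and Fst were lower. Of 23 genes of a growth factor list that covers IGF, PDGF and FGF, Igf1, Igfbp6 and Ntrk2 were higher and Igfbp2, Igfbp5 and Kitl lower. Ntrk2 and Kitl belong to other growth factor families. Igf1, a growth factor that granulosa cells respond to, had 130 against 57.2 CPM. Pdgfra, a receptor common to fibroblasts, had 228 against 133 CPM, within 2-fold. Retinoid genes were split: Aldh1a3, Rbp4 and Rarres2 were higher and Aldh1a1 was lower, at 62.4 against 357 CPM. Other genes with high ratios were the potassium channel Kcnk2 with 339 against 74.3 CPM, the stress-responsive Nupr1 with 276 against 59.9 CPM, and the opioid precursor Penk with 231 against 59.7 CPM.

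**Figure D2:**
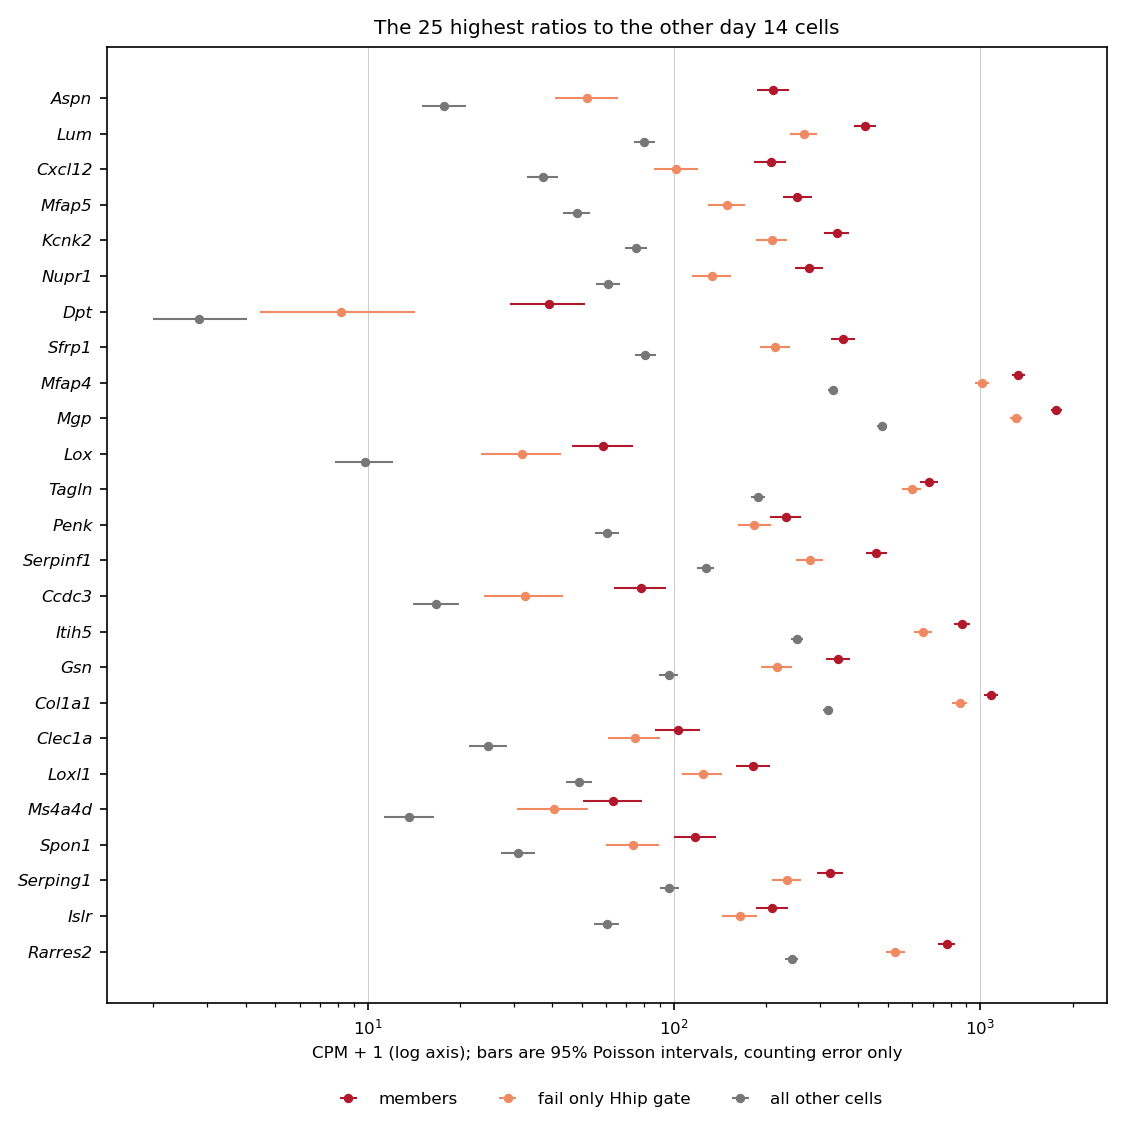
Summed level (CPM + 1, log axis) with 95% Poisson intervals of the 25 genes with the highest log2 ratio of members to the other day 14 cells, leaving out the rule genes, in the members, in the cells that fail only the Hhip gate and in all other cells. The cells that fail only the Hhip gate, which are part of the other cells, lie between the other sets for each of the 25 genes.

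Of 27 transcription factors of the gonad 3 were higher and 2 lower, where 1.29% and 2.80% of all genes tested were. Tcf21, a mesenchymal regulator, had 559 against 220 CPM and was detected in 120 members, from 0 through 4.67 to 30.9 CP10K. Osr1 had 32.7 against 11.4 CPM. Nr5a1, the activator of steroidogenic enzymes, was lower at 28.2 against 69.1 CPM, and so was Emx2. Nr2f2, a nuclear receptor typical of interstitial cells, had 273 against 213 CPM. Foxl2, a granulosa lineage factor, had 156 against 126 CPM, and Wt1, found in gonadal somatic cells, had 140 against 146 CPM.

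Both oestrogen receptors were rare in members. Esr1, which encodes ERα, gave 17 UMIs in 15 cells, or 12.9 CPM, with a highest value of 3.17 CP10K; the other cells had 20.2 CPM. Esr2, which encodes ERβ, gave 38 UMIs in 29 cells, or 28.9 CPM, against 24.4 CPM. After thinning, 8.0% of members (3.90 to 14.2%, 10 cells) held a UMI of Esr1 and 13.6% (8.13 to 20.9%, 17 cells) one of Esr2. In the 39 cells that failed the endothelial gate, with a median of 22093 UMIs before thinning, the thinned shares were 5.13% (0.627 to 17.3%) and 7.69% (1.62 to 20.9%). Of these cells 5 reached the entry sum, and the granulosa genes of the rule ran to 34.0 CP10K. They are therefore not a clean measure of free RNA. The intervals overlap those of the members, and so few cells cannot show whether either receptor exceeds free RNA. Without thinning the shares in members were 12% and 23.2%, and in the endothelial cells 10.3% and 28.2%. No gene of 6 steroid receptors with enough UMIs was called.

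The genes lower in members named other cell types. Ccl21a, a chemokine of lymphatic endothelium, had 17.5 against 628 CPM. The histone gene Hist1h2ap had 12.2 against 341 CPM. Ooep, an oocyte gene, had 5.33 against 103 CPM; without the germ cells among the other cells its log2 ratio changed from -2.88 to 0.10. The haemoglobin genes Hbb-bs and Hba-a1 had 270 and 69.3 CPM in members against 10966 and 6985 CPM in the other cells.

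The 125 cells that failed only the Hhip gate were the most like set. Against these cells only 29 of 11295 genes were higher in members (0.257%) and 27 lower (0.239%), the 4 genes of the gate among them, and of the 15 stromal markers 0 were called. Aspn differed most, at 210 against 51.1 CPM, a ratio of 4.11 (3.16 to 5.42). Dpt, Prss23, Cercam, Crip1, Tanc2, Ccdc3 and the transcription factor Foxo1, at 133 against 58.3 CPM, were also higher. Lower in members were Cd24a, Acsbg1, Emcn, Fbxo32, Mycn, Fabp5, Thbd and Dlk1. Of 12 Hedgehog genes, 9 with enough UMIs, 1 was lower: Ptch1, a receptor and target of the pathway, with 117 against 246 CPM. Hhip, itself a Hedgehog target, is a gene of the gate. Dlk1 in the cells that failed the gate came from few cells, with 64 of its 71 UMIs in 1 cell. Of the 29 higher genes, Upk3b and Krt19 belong to the surface epithelium list, and nearly all of their UMIs came from 1 member, described below.

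The members divided into 3 sub-clusters of 56, 40 and 29 cells, found without the rule genes. Their median depths were 7809, 8304 and 8834 UMIs. Since the same cells were clustered and compared, the following values are descriptions. Genes were called for a sub-cluster only if the intervals also did not overlap: 98 higher and 78 lower of 9390 in sub-cluster 1 (1.04% and 0.831%), 109 and 52 in sub-cluster 2 (1.16% and 0.554%), and 31 and 142 in sub-cluster 3 (0.330% and 1.51%).

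Sub-cluster 2 was led by contractile genes, with 7 of 10 smooth muscle and pericyte markers higher and 0 lower. Actg2, a smooth muscle actin, had 475 CPM against 9.18 CPM in the other members, with 17 of the 40 cells holding a UMI. Calponin (Cnn1) had 188 against 2.30 CPM in 11 cells. Smooth muscle myosin (Myh11) had 260 against 24.1 CPM in 18 cells. Acta2 was detected in most members, 97 of 125, and its level set sub-cluster 2 apart: 4787 against 747 CPM, from 0 through a median of 28.6 to 250 CP10K, while the medians in sub-clusters 1 and 3 were 1.73 and 2.62 CP10K. Its 15 stromal markers summed to 10306 CPM against 7871 CPM in the other members, with Spon1 and Mfap5 higher at 181 and 457 CPM, but the cells with most contractile signal held less of them. In ranges chosen after the values were seen, the 13 cells of sub-cluster 2 with under 20 CP10K of the smooth muscle list had a median stromal sum of 148 CP10K (57.5 to 676). The 18 cells from 20 to under 100 CP10K had a median of 82.3 (38.1 to 143), and the 9 cells at 100 CP10K or more one of 50.1 (31.9 to 98.6), where sub-cluster 1 had a median of 69.1 CP10K. At a finer clustering resolution, 17 of the 40 cells fell in a sub-cluster with 789 CPM of Actg2 and 21 in another with 36.9 CPM. Ogn was at 1063 CPM, against 481 in sub-cluster 1 and 633 in sub-cluster 3. Aspn, the gene with the highest ratio to the rest of the library, belonged mainly here, at 466 CPM in 29 of 40 cells against 83.3 and 74.3 CPM in the others.

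The sum of the 13 smooth muscle and pericyte markers ran from 0 to 414 CP10K over the members, with a median of 44.5 in sub-cluster 2 and 4.44 and 5.65 in sub-clusters 1 and 3. At 20 CP10K or more, a level chosen after the values were seen, 40 members qualified, 27 of them in sub-cluster 2. Such cells were as common among those that failed only the Hhip gate, 45 of 125, and were 27 of 179 among the cells of the same rule at postnatal day 7. In the clustering of the whole library 29 of the 40 cells of sub-cluster 2 joined a cluster led by Actg2, Cnn1 and Tagln, which also held 19 of the cells that failed only the Hhip gate. The pericyte markers Kcnj8 and Higd1b were at 5.33 CPM each in members, and Rgs5 at 12.2 against 38.6 CPM in the other cells. Without the 34 members that hold a UMI of Myh11 or of a defining gene of another type, Tagln lost its call against the other cells, with a log2 ratio of 0.79 in place of 1.80. The other cells were not filtered in this way, so a lower ratio for a contractile gene is built into this alternative.

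**Figure D3:**
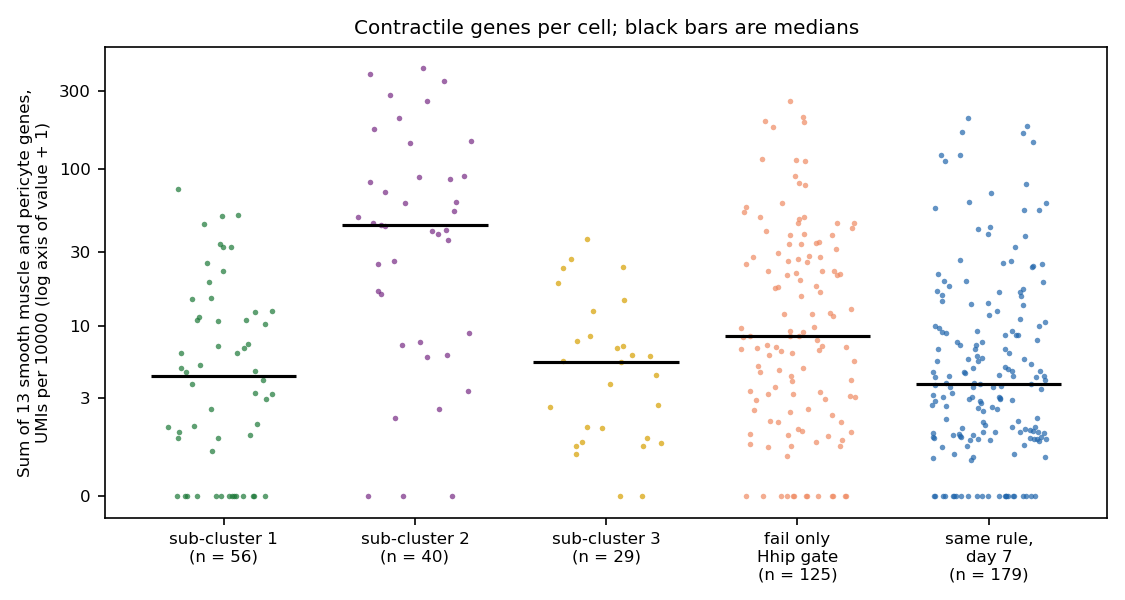
Sum of the 13 smooth muscle and pericyte genes in single cells, in UMIs per 10000 on a log axis of value + 1, for the 3 sub-clusters of members, the cells that fail only the Hhip gate and the cells of the same rule at postnatal day 7; black bars are medians. Sub-cluster 2 has a median of 44.5, and the highest cells reach 414 among members, 262 among the cells that fail only the Hhip gate and 206 at day 7.

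Among the 8 genes with the highest ratios in sub-cluster 2 were also Fhl1, a LIM-domain protein of muscle, with 262 against 28.7 CPM, and Fbxl22, an F-box protein of muscle, with 294 against 40.2 CPM. The CArG box, the motif that serum response factor reads in contractile genes, was sought on both strands in the 250 bases before their starts. It occurred in 1.47% of 32851 windows. The windows of Cnn1, Lmod1 and Des were searched too and do not hold these letters. Neither does that of Acta2, but its RefSeq start lies 217 bases inside the gene as GENCODE gives it, so most of that window is not upstream of the GENCODE start. The first Fhl1 window at chrX:56779433-56779682, plus strand, and the Fbxl22 window at chr9:66514594-66514843, minus strand, hold 1 match each, in capitals here, 102 and 222 bases before the start. These windows were picked for display because they hold a match. Actg2, Myh11 and Tagln, also among the 8 genes, had no promoter entry and were not searched. Both RefSeq starts of Fhl1 lie within the gene as GENCODE gives it, and the window of the second holds no match.
Fhl1: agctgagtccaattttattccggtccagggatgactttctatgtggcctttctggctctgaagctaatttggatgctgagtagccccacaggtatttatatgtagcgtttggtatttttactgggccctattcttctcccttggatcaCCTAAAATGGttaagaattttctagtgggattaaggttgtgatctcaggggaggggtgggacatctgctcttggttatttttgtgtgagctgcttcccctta
Fbxl22: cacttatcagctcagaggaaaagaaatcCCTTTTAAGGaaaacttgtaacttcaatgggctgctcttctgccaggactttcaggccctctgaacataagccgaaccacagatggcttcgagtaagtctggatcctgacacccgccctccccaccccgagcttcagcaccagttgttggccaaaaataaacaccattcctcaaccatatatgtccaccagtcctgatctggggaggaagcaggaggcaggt
These matches are letters in the reference and were not tested for binding or activity.

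Sub-cluster 1 was marked by Wt1 and by 2 of the granulosa markers. Wt1 had 243 CPM in 40 of its 56 cells, against 56.6 CPM in the other members, and ran from 0 through 1.37 to 14.7 CP10K. Of 6 granulosa markers with enough UMIs 2 were higher and 0 lower. Kctd14 and Gatm were higher, at 117 and 66.3 CPM, but Foxl2 was alike across the 3 sub-clusters at 168, 156 and 131 CPM. The collagen Col26a1 had 151 against 49.7 CPM in 40 cells. Spon1, Aspn, Mfap5, Cxcl12 and Lox were lower than in the other members. Pdgfra was within 2-fold of the others, at 297 CPM in 44 cells. Wt1 was not particular to members and was uneven over the other cells. It had 520 CPM in the cells that failed only the entry sum, 166 in the granulosa class and 146 in the endothelial class. The Hhip gate class had 66.7 CPM and the steroidogenic class 24.7 CPM. After thinning 36.0% of all members held a Wt1 UMI, and 46.2% (30.1 to 62.8%) of the endothelial cells. Its detection over all members did not exceed that in the endothelial cells. The thinned share was not taken for sub-cluster 1 alone.

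Part of the sub-cluster's profile came from 1 cell of 20125 UMIs. It held 30 of the 35 Upk3b UMIs of all members, 25 of the 27 for Krt19, 53 of the 115 for Crip1, 24 of the 60 for Sdc4, 89 of the 231 for Mt1 and 41 of the 89 for Mt2. It had 47.2 CP10K of the surface epithelium list, where 114 of the 125 members had 0, and it also carried 13 UMIs of Dcn, 15 of Ogn and 14 of Aspn. Whether it was a mixed droplet was not tested. Without it the members had 3.87 CPM of Upk3b and 48.0 CPM of Crip1. Wt1 was little affected, with 8 of 184 UMIs in this cell.

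Sub-cluster 3 differed mainly by what was low. Tenascin (Tnc), a matricellular protein, was at 0 UMIs, Ncam1 at 7.07 CPM against 89.3 CPM, and 6 of the 10 smooth muscle markers were lower. Igf1 was the clearest positive gene, at 279 against 89.3 CPM and in 23 of 29 cells. Dpep1 was detected in all 29 cells at 304 CPM, against 88.4 and 188 CPM in sub-clusters 1 and 2, but it is a rule gene. The remaining named genes, among them Akr1cl, Zfas1, Nop53 and the elongation factor Eef2, were less than 2-fold higher. Actr3b had 322 against 154 CPM.

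**Figure D4:**
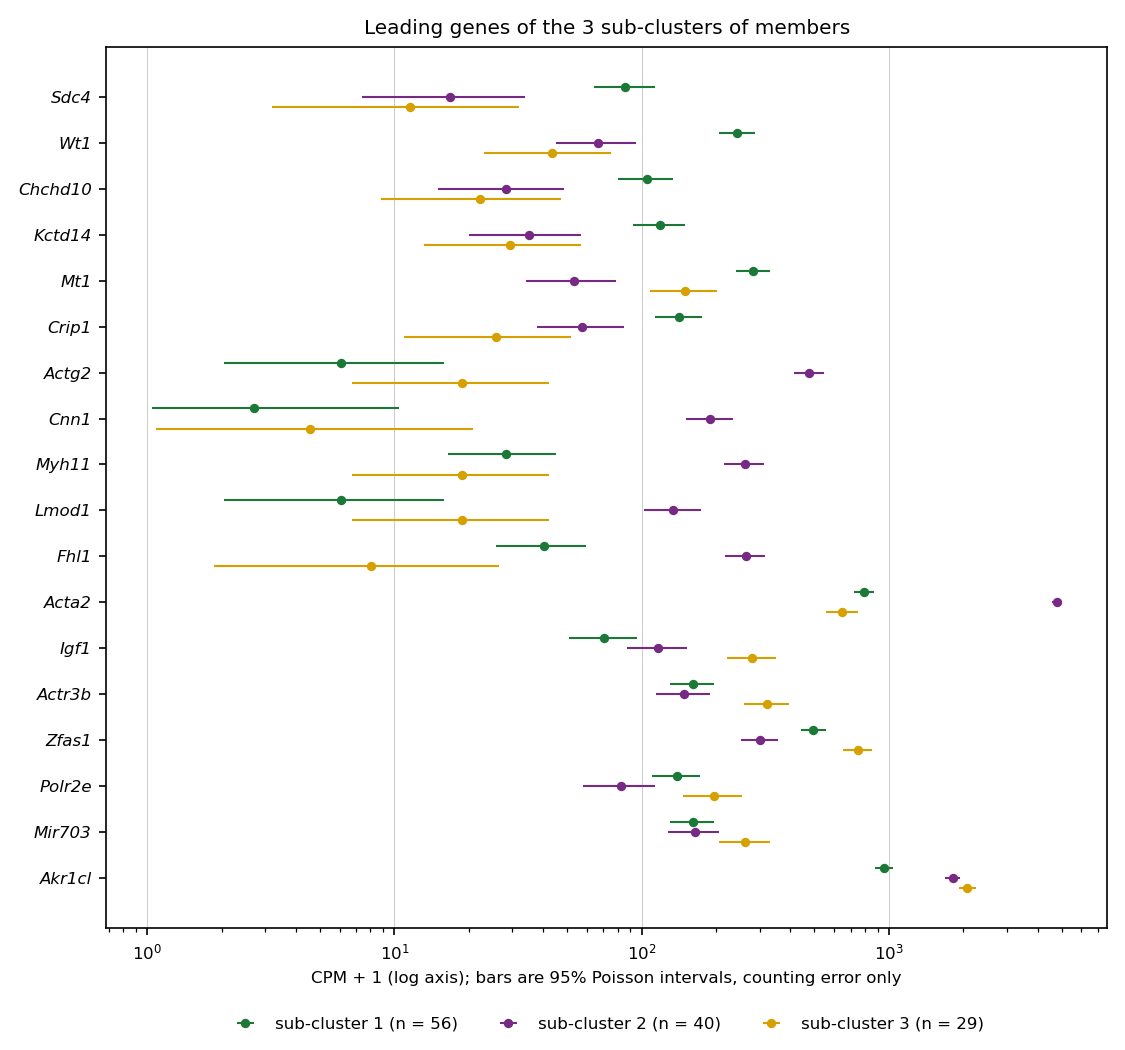
Summed level (CPM + 1, log axis) with 95% Poisson intervals of the 6 genes with the highest log2 ratio in each of the 3 sub-clusters, whose sizes are 56, 40 and 29 cells. The contractile genes from Actg2 to Acta2 are high in sub-cluster 2 alone of the 3, whereas among the genes of sub-cluster 3 Igf1 stands farthest apart, at 279 against 89.3 CPM in the other members.

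The same rule took 179 of 509 cells at postnatal day 7 (35.2%, 31.0 to 39.5%) and 15 of 456 at embryonic day 16.5 (3.29%, 1.85 to 5.37%). Their make-up differed: at day 7 Dcn supplied 89.8% of the entry CP10K summed over the cells and Cxcl14 0.836%. Depth was alike, with a median of 8209 UMIs at day 7. Of cells past the entry gate, 29 failed only the Hhip gate at day 7 against 125 at day 14, and 54 failed only the mitotic gate against 7. The comparison with day 7 is 1 library against 1 library and has no replicate check; age and library cannot be told apart.

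Most stromal genes were alike at both ages. Of 11846 genes 114 were higher at day 14 (0.962%) and 119 lower (1.00%). Of the 15 stromal markers 1 was higher, Spon1, and 0 lower, and of 10 collagens 0 were called: Col1a1 had 1082 and 1145 CPM, Col3a1 1327 and 1255 CPM. Tcf21 had 559 and 481 CPM, Pdgfra 228 and 230 CPM, and Nr2f2 273 and 243 CPM. Esr1 had 12.9 and 20.4 CPM, and Esr2 28.9 and 16.1 CPM, both within 2-fold.

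Of the genes named outside the rule, Spon1 had the highest log2 ratio between the ages, 3.45. It gave 153 UMIs in 50 of 125 members, from 0, the median, to 12.7 CP10K, and 3 UMIs in 3 of 179 cells at day 7. The ratio was 72.2 (24.3 to 354). After thinning 28.0% of the members (20.3 to 36.7%) held a UMI, against 10.3% (2.87 to 24.2%) of the day 14 endothelial cells and 0.559% (0.0141 to 3.07%) of the day 7 cells. The intervals of the members and of the endothelial cells overlap. The other cells of the day 14 library had 30.0 CPM of Spon1, spread unevenly over the gate classes. The Hhip gate class had 51.6 CPM, the cycling class 31.7, the endothelial class 20.4 and the granulosa class 17.5 CPM. The steroidogenic class had 5.69 CPM, from 3 UMIs. In the day 7 library Spon1 was low, at 5.53 CPM in the cells outside the rule.

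Csmd1, a large membrane protein with complement-control domains, had 111 UMIs in 59 members and 1 UMI at day 7, a ratio of 157 (27.6 to 6266). The C-type lectin Clec1a had 102 against 9.14 CPM, Aspn 210 against 30.6 CPM, Nupr1 276 against 47.8 CPM, and the matricellular Smoc2 246 against 50.5 CPM. The caveolar genes Cavin2 and Cav1 were both higher, at 96.0 and 72.3 against 9.68 and 12.9 CPM. Bmp3, Adamtsl2 and Galnt15 were close to absent at day 7, with 5, 3 and 2 UMIs. Of 12 smooth muscle genes 4 were higher, Actg2, Myh11, Lmod1 and Rgs5, and 0 lower. Acta2 had 2107 against 1139 CPM and was within 2-fold.

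The metallothioneins Mt1, Mt2 and Mt3, neighbouring genes that bind zinc and copper, were also called higher than at day 7, at 176, 67.8 and 45.7 against 26.9, 4.30 and 5.38 CPM. This rested in part on the single Upk3b-high cell for Mt1 and Mt2. Without it the levels were 110 and 37.1 CPM, and Mt3, of which it held 0 UMIs, was at 46.4 CPM. Another member, of 13858 UMIs, held 23.8 CP10K of Mt1, where the Upk3b-high cell held 44.2. The median of Mt1 was 0 in sub-clusters 1 and 2 and 0.981 CP10K in sub-cluster 3. With the entry gate at 20 CP10K the log2 ratios were below the call, at 0.88 in place of 2.33 for Mt1 and 0.23 in place of 2.44 for Mt2. Both of these cells have entry sums under 20 CP10K, so that gate leaves them out. At both ages the cells of the rule held less Mt1 than the other cells of their library, which had 725 CPM at day 14 and 277 CPM at day 7.

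The genes lower at day 14 included the maternally expressed RNA Meg3 and its neighbour Dlk1 on chromosome 12, imprinted genes known from fetal and neonatal growth. Dlk1, which encodes a Notch-like membrane protein, ran from 0 through a median of 2.51 to 118 CP10K in the 179 day 7 cells, 141 of which held a UMI. In the day 14 members the median was 0, the highest 6.72 CP10K, and 11 cells held a UMI. The sums were 810 and 16.8 CPM, a fold of 48.3 (31.8 to 77.3) lower at day 14. Meg3 went from 1345 to 177 CPM, a fold of 7.61 (6.65 to 8.75), and Rian, further along the same cluster, from 47.8 to 6.09 CPM.

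Of 15 imprinted growth genes with enough UMIs 7 were lower at day 14 and 0 higher. H19 was at 1.52 against 101 CPM, and Mest, Plagl1 and the kinase inhibitor Cdkn1c were among the 7. Grb10 and Ndn were within 2-fold. Within the day 7 library, where 316 of 15606 genes were higher in the cells of the rule than in the others (2.02%) and 781 lower (5.00%), Dlk1, Meg3 and the heparin-binding factor Ptn had marked the cells of the rule, with 810, 1345 and 406 CPM against 165, 300.2 and 119 CPM in the other cells of that library. At day 14 none of them did: the members had 16.8, 177 and 29.7 CPM and the other cells 12.3, 249 and 35.1 CPM. Periostin (Postn) went from 85.5 to 9.14 CPM, Igfbp4 from 1263 to 433 CPM, Cxcl12 from 473 to 206 CPM, and Gas1 from 218 to 102 CPM.

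The neutrophil genes S100a8 and S100a9 and the protease inhibitor Stfa1 were at 0 UMIs in the members and at 169, 117 and 48.4 CPM in the day 7 cells. Against a floor of 3 UMIs over the members this is at least 73.9-fold, 51.3-fold and 21.2-fold lower. The UMIs were concentrated, as 285 of the 314 for S100a8 lay in 3 of the 179 day 7 cells, and the other cells of the day 7 library had 409 CPM. Haemoglobin was uneven in the same way, with 3447 of the 3639 Hba-a1 UMIs of the day 7 set in 1 cell. The immune list summed to 31.2 CPM in the members and 65.0 CPM in the day 7 cells, with 103 and 131 cells at 0 and per-cell ranges of 0 to 4.31 and 0 to 30.3 CP10K.

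**Figure D5:**
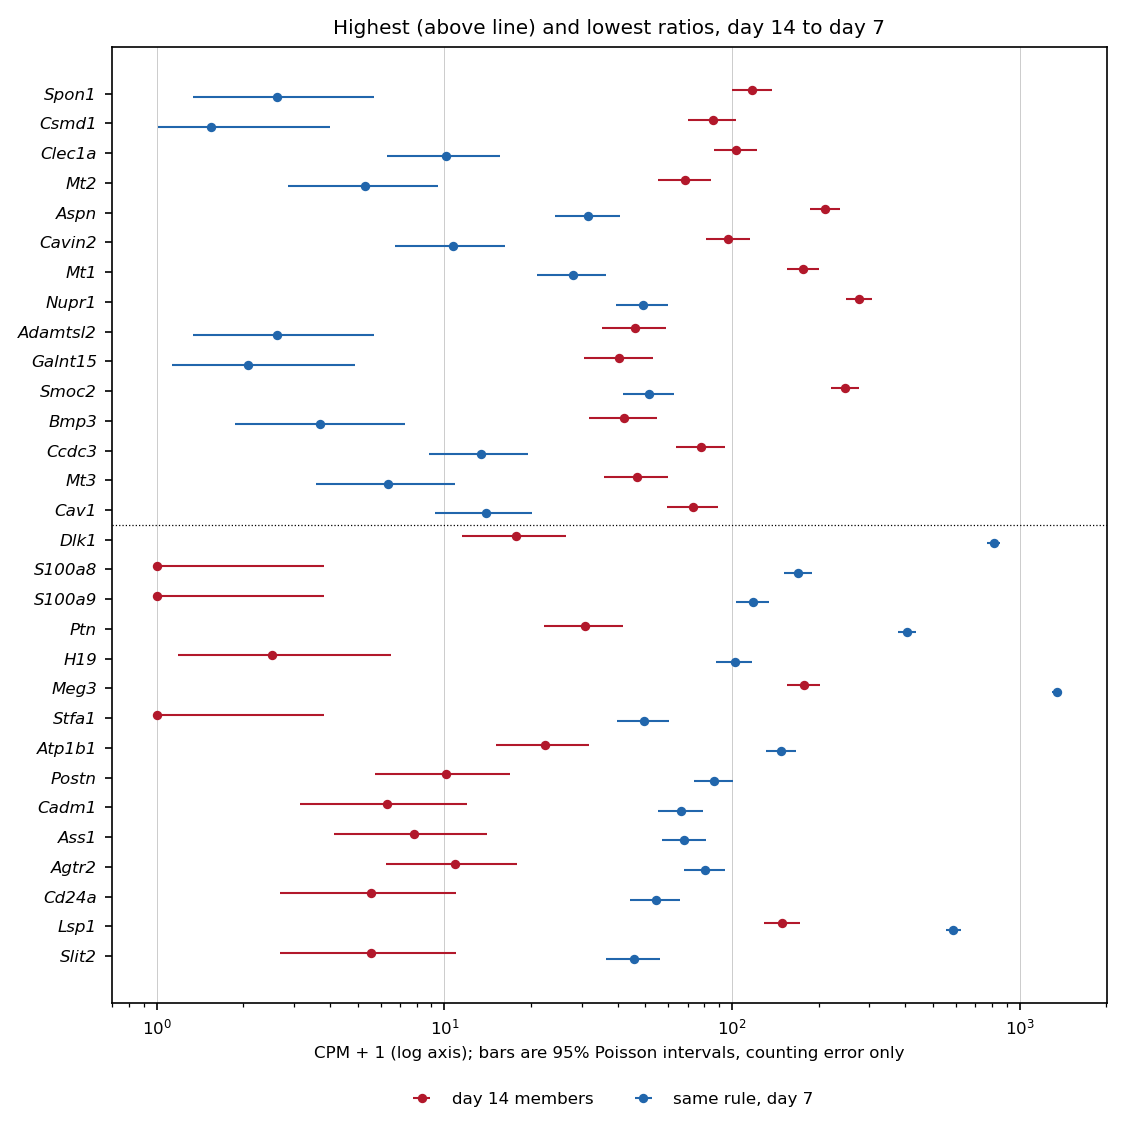
Summed level (CPM + 1, log axis) with 95% Poisson intervals of the 15 genes with the highest (above the dotted line) and the 15 with the lowest log2 ratio of the day 14 members to the day 7 cells of the same rule. Spon1, at 117 against 1.61 CPM, leads the higher genes, and Dlk1, at 16.8 against 810 CPM, the lower ones.

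At embryonic day 16.5 the 15 cells of the rule had 0 UMIs of Spon1, Aspn and Cxcl14, and 1562 CPM of Dcn. They held 209359 UMIs in all, so the upper limit for each 0 was 17.6 CPM. That lies below the day 7 levels of Aspn and Cxcl14, 30.6 and 29.0 CPM, but above that of Spon1, 1.61 CPM. So few UMIs cannot show whether Spon1 differed between these ages. Cxcl14 and Dcn were both used to choose the cells. Cxcl14 stood at 554 CPM in the day 14 members, 397 CPM in the cells that failed only the Hhip gate and 29.0 CPM in the day 7 cells, and Dcn at 1452, 1309 and 3066 CPM. With Dcn alone as the entry gate, an alternative chosen after seeing the data, 63 cells remained at day 14 and 176 at day 7, and Spon1, Aspn, Dlk1 and Meg3 kept their calls.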

How the data were processed

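Per the labels, the 3 ovary libraries, 1 per age, are 10x 3′ v2 libraries. The deposited matrices hold UMI counts per gene and cell barcode, not normalized by the authors. They were made with Cell Ranger 2.1.1 on GRCm38, per the submitters' processing notes. For annotation and cell calling the version is not given in the sources used here. Labels call the youngest library ED17 in its title and embryonic day 16.5 in its age. UMIs of 108 symbols shared by several identifiers were summed. Cells with at least 200 genes were kept and the rule was applied to CP10K values. Raw UMIs were summed over each set of cells, and genes with at least 10 UMIs in both sets together were compared as log2 ratios of CPM + 10. No test was made, since each age has 1 library. The comparison of summed counts was tested on simulated counts with known changes larger than the 2-fold call and with counting error only. Unevenness between cells, the clustering and the thinning were not covered. Named genes were those with the highest and lowest log2 ratios among genes of at least 50 UMIs, 25 higher and 12 lower against the other cells, 15 each way against day 7, and 8 each way otherwise, with list members beside them. The members and lists were chosen with earlier results of these data known. Sub-clusters came from Leiden clustering at resolution 0.5 without the rule genes. Promoter windows came from RefSeq (GRCm38.p6) for 19 of 26 genes looked up, and gene positions from GENCODE M21. Alternatives changed the pseudocount, the UMI filter, the gates, the cells compared and the clustering. Python 3.11.15, NumPy 2.4.6, SciPy 1.17.1, pandas 2.3.3, Scanpy 1.11.5 and matplotlib 3.10.9 were used. A few genes are not reported here.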

Additional observations from a re-analysis of the deposited data

How the results depend on the processing

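Each age has 1 library, so no difference has a replicate check. No paired analysis was possible because each age has 1 library. A pseudocount of 1 CPM gave 605 genes higher and 2335 lower against the other cells, and 524 and 693 against postnatal day 7, in place of 195, 424, 114 and 119. The median of the gate classes as the other cells gave 324 and 171, and Ccl21a, Cst8, Lyz2, Mgarp and Ooep lost their calls. Without germ cells among the other cells, Ooep changed from -2.88 to 0.10 on the log2 scale. A filter of 50 UMIs left 74 higher and 90 lower against day 7, from fewer genes tested. At a Leiden resolution of 1.0 there were 6 sub-clusters and 18 cells in the one with high Actg2, and 20 cells when dissociation stress genes were left out too, in place of 40. Without thinning, the shares of members with a UMI were 23.2% for Esr2 and 40.0% for Spon1, in place of 13.6% and 28.0%. Apart from the filter, the cause was not tested. Some alternatives were chosen after seeing the data. Other cells without those that fail only the Hhip gate gave 292 and 561. Against day 7, entry on Dcn alone gave 118 and 149, with Mt2 at 0.71, and no Hhip gate at either age gave 81 and 104, with Ogn at 0.99 in place of 1.33. Dcn itself, at -1.07 against day 7, lost its call under several alternatives.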

Other observations

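Among all genes tested against the other cells of the library 1.29% were higher and 2.80% lower in the members. Of 12 Hedgehog genes 2 were lower than in the other cells and 0 higher, among them the ligand Ihh at 3.81 against 41.0 CPM. Of 18 genes of cholesterol synthesis and uptake 3 were lower and 0 higher, with summed levels of 803 and 1276 CPM. Of 17 genes induced by tissue dissociation 0 were called, and they summed to 8496 CPM in members and 7790 CPM in the other cells. Within the members the same genes summed to 10177 CPM in sub-cluster 1 and 7132 CPM in the members outside it.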
